A study of Mus musculus with 6 samples.

Results

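Focal adhesions are the sites where integrins, bound to matrix outside the cell, are tied to actin filaments inside it. Talin and kindlin bind the integrin tail and switch the receptor on, the complex of ILK, PINCH and parvin and the linkers vinculin, tensin, alpha-actinin and zyxin connect it to actin, and the kinases FAK, PYK2, Src and Fyn signal through the scaffolds paxillin, HIC-5, p130Cas and Crk. In arterial smooth muscle these sites carry contractile force to the matrix, and many of them contain beta1 integrin. The genes described here are 46 such adaptors, kinases and LIM proteins (LIM domains are zinc-binding protein contacts), chosen by name. All probe sets whose only gene symbol in the platform annotation was one of the 46 were taken, which gave 111 probe sets for 43 genes out of 45037 probe sets for 18193 named genes. The probe sets of Nrap, an actin-binding protein of striated muscle, and of Fhl3, a LIM-only protein, lay below the signal filter (a log2 value of 6.50), and Ptk2, Nedd9 and Fermt1 are not analysed here, so that 41 genes were tested, 1 probe set per gene.

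RNA of whole mesenteric arteries, which feed the intestine, was measured on 6 Affymetrix arrays, 1 mouse each. Knockout mice (animals 72, 73 and 86) had loxP-flanked beta1 integrin and were positive for sm22alphaCRE, a Cre recombinase driven by the SM22alpha (Tagln) promoter of smooth muscle. Control mice (animals 30, 74 and 75) had the same loxP-flanked gene and no Cre. Both groups were of a mixed background that included FVB, SVJ129 and C57BL/6, received 14 daily doses of 1 mg tamoxifen starting at 5 weeks and were taken at 7 weeks of age. The arteries had been cleared of adipose and lymph tissue. The comparison asks which adhesion genes differ after beta1 integrin is lost from the smooth muscle of the vessel. The vessel wall also holds endothelium, fibroblasts, nerves and immune cells that the Cre is not meant to reach, and in such tissue RNA fewer cells of a type and less RNA per cell cannot be told apart.

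Array medians lay between 62.8 and 72.6 intensity units, and the files give no detection calls, so that the number of arrays limits the precision. Smooth muscle markers were present on every array, with a mean log2 value of 12.20 to 12.53 on knockout arrays and 12.38 to 12.95 on control arrays, while no probe set of the 9 epithelial and mesothelial markers on the array lay above the filter. Itgb1, the targeted gene, had log2 values of 10.51, 10.56 and 10.76 on knockout arrays 72, 73 and 86 and of 11.80, 11.04 and 11.20 on control arrays 30, 74 and 75. The groups did not overlap, and the limma adjusted p over all genes was 0.127. Knockout 86 had a log2 value of 11.83 for Xist and of 2.03 for the Y-linked Eif2s3y, whereas the other 5 arrays lay at 5.29 to 6.09 and at 8.63 to 9.07. It was thus the only female array, and values without it are given in the closing section.

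The adhesion adaptors showed no common direction between knockout and control arteries. Of the 41 genes, 0 passed an adjusted p of 0.05 in limma over all 10654 genes tested, where 2.42% of all genes passed (1.76% higher and 0.657% lower). At an unadjusted p under 0.05 there were 7 of 41 (17.1%), 2 higher and 5 lower in the knockout, against 21.4% of all genes (9.86% higher and 11.5% lower). The groups did not overlap in 12 of 41 (29.3%), 6 above and 6 below, against 28.1% of all genes (13.0% above and 15.1% below). These shares lay near or below those of all genes. Differences are given as knockout minus control, in units of log2(intensity + 1). Their median over the 41 was 0.04, with 22 genes higher and 19 lower, and over all genes -0.05. With median centring of the arrays in place of quantile normalization these medians were -0.03 and -0.10, so the sign of the adaptors' median depended on the scaling. The median size of a difference was 0.20 among the adaptors and 0.23 among all genes. For 35 of the 41 genes the 95% confidence interval lay within 2-fold either way (85.4%, against 77.8% of all genes), and for 18 it lay within 1.5-fold either way.

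**Figure D1:**
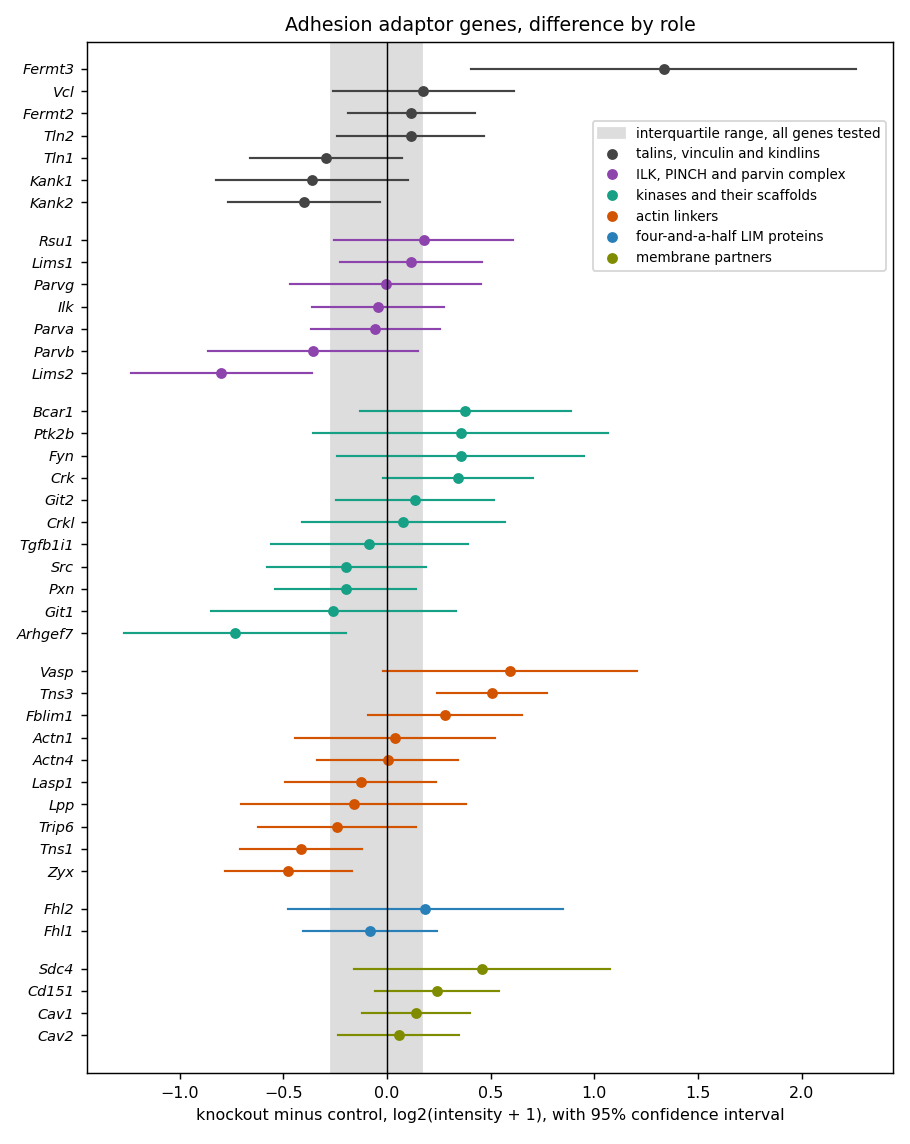
Difference of each tested adaptor gene between knockout and control arteries on the log2(intensity + 1) scale, 1 row per gene, grouped by role; points are knockout minus control, lines the 95% confidence interval from limma, and the grey band the interquartile range of all genes tested (-0.27 to 0.17). Fermt3 lies farthest to the right at 1.33, and Lims2 and Arhgef7 lie farthest to the left at -0.80 and -0.73.

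The PINCH proteins, which join ILK to the rest of the adhesion, differed between their 2 genes. Lims2, which encodes PINCH2, had log2 values of 10.67, 10.58 and 10.98 on knockout arrays 72, 73 and 86, against 11.78, 11.25 and 11.59 on control arrays 30, 74 and 75. All 3 knockout values lay below all 3 control values. The means were 10.74 ± 0.21 in knockout and 11.54 ± 0.27 in control arteries (SD, n = 3 each), a difference of -0.80 (SE 0.18) or 57.5% of the control level (95% confidence interval 42.5 to 77.7), which missed the threshold (limma adjusted p = 0.0784, and 0.00345 before adjustment). Median centring in place of quantile normalization put it past the threshold (adjusted p = 0.0478). Lims1, which encodes PINCH1, had 10.35, 10.55 and 10.61 on knockout arrays and 10.59, 10.32 and 10.26 on control arrays, and the groups overlapped (difference 0.12, adjusted p = 0.678).

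The other partners of this complex overlapped between groups in the probe set that stood for each gene. Ilk, the integrin-linked pseudokinase at its centre, had 11.50, 11.37 and 11.41 on knockout arrays 72, 73 and 86, against 11.55, 11.27 and 11.58 on control arrays 30, 74 and 75. Its difference was -0.04, with an interval from -0.36 to 0.28. Parva, the actin-binding alpha-parvin, differed by -0.06, with an interval from -0.37 to 0.25. Rsu1, which binds the PINCH proteins, differed by 0.18, and its other probe set above the filter by -0.51 with no overlap (limma by probe set, adjusted p = 0.231). Parvb, beta-parvin, differed by -0.36 (adjusted p = 0.376), and the mainly leukocytic Parvg by -0.01. Of the 7 genes tested in this complex, 2 were higher and 5 lower.

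The tensins, which bind integrin tails and actin at fibrillar adhesions, differed in opposite directions. Tns3 had log2 values of 12.03, 12.07 and 12.07 on knockout arrays 72, 73 and 86, against 11.62, 11.56 and 11.48 on control arrays 30, 74 and 75. Every knockout value was higher than every control value, and the spread within each group was small. The difference was 0.51 (SE 0.11), or 142% of control (95% confidence interval 118 to 171), with a limma adjusted p of 0.0721, the smallest among the 41 genes. Its second probe set gave a difference of 0.85 with no overlap (limma by probe set, adjusted p = 0.0765), and the mean of both probe sets passed over all genes (0.68, adjusted p = 0.0421), as did the first one with a trended robust prior (adjusted p = 0.0443). With median centring it was 0.40 (adjusted p = 0.155), with no filter the adjusted p was 0.165, and with 1 array left out it lay between 0.0916 and 0.209.

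Tns1 had 12.35, 12.28 and 12.33 on knockout arrays 72, 73 and 86, against 12.89, 12.63 and 12.67 on control arrays 30, 74 and 75. All knockout values lay below the control values, and the difference was -0.41 (SE 0.12, 75.1% of control, adjusted p = 0.131). The 2 other Tns1 probe sets differed by -0.13 and -0.10 with overlapping groups, so the groups were apart in the brightest probe set alone. Tns2, the third tensin tested, read from the list of other adhesion proteins, had 9.83, 9.69 and 10.37 on knockout arrays 72, 73 and 86, against 10.84, 10.57 and 10.97 on control arrays 30, 74 and 75 (difference -0.83, adjusted p = 0.0969). It, too, did not overlap between groups.

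Among the actin linkers, zyxin and VASP, partners in actin assembly at adhesions, differed in opposite directions. Zyx had 10.48, 10.32 and 10.60 on knockout arrays 72, 73 and 86, against 11.03, 10.93 and 10.88 on control arrays 30, 74 and 75. The knockout values were all lower, with a difference of -0.48 (SE 0.13, 71.9% of control, 95% confidence interval 58.2 to 88.8, adjusted p = 0.109). Vasp, which zyxin recruits to lengthen actin filaments, had 10.49, 10.54 and 10.61 on knockout arrays 72, 73 and 86, against 10.42, 9.37 and 10.08 on control arrays 30, 74 and 75. Its groups did not overlap, but the control values were spread widely, and the difference of 0.59 (SE 0.26, adjusted p = 0.245) was 0.30 without control 74.

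The remaining actin linkers overlapped between groups. The alpha-actinin genes, whose products crosslink actin, differed by 0.04 (Actn1, interval -0.45 to 0.52) and by 0.0025 (Actn4, interval -0.34 to 0.34). The zyxin relatives Lpp and Trip6 differed by -0.16 and -0.24, Lasp1, an actin-binding LIM protein, by -0.13, and Fblim1, the filamin and kindlin partner migfilin, by 0.28 (adjusted p between 0.347 and 0.720 for these 4). The LIM-only genes tested, Fhl1 and Fhl2, differed by -0.08 and 0.18, and their groups overlapped.

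**Figure D2:**
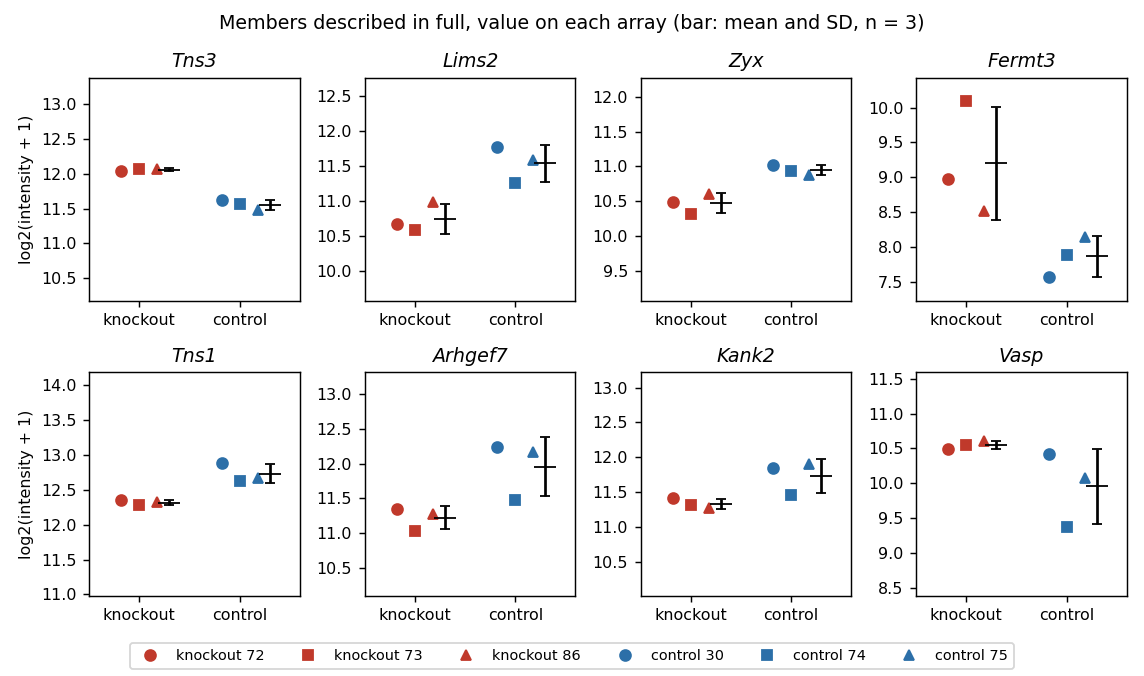
log2(intensity + 1) on each array for the 8 adaptor genes with an unadjusted p under 0.05 or a difference of at least 0.5 in size; symbols are single arrays, and bars show the mean and SD of 3 arrays. No knockout value overlaps a control value in these 8 genes, whose choice by p or size favours groups that do not overlap. Tns3, Fermt3 and Vasp are higher and Lims2, Zyx, Tns1, Arhgef7 and Kank2 lower in the knockout. The groups did not overlap in 29.3% of all tested adaptors and in 28.1% of all genes. Of the 8, 0 passed an adjusted p of 0.05.

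The kindlins showed the largest single difference, in Fermt3, the kindlin of blood cells. Fermt3 had log2 values of 8.98, 10.10 and 8.52 on knockout arrays 72, 73 and 86, against 7.56, 7.89 and 8.14 on control arrays 30, 74 and 75. Knockout 73 stood above the other knockout arrays, and the groups did not overlap. The difference was 1.33 (SE 0.39), 2.52-fold (95% confidence interval of 132 to 480% of control, adjusted p = 0.127), and 0.89 without knockout 73. Its other probe sets, all below the filter, differed by 1.06, 0.75 and 0.11 with overlapping groups. Fermt2, the kindlin of smooth muscle and fibroblasts, had 12.31, 12.11 and 12.38 on knockout arrays and 12.21, 12.05 and 12.20 on control arrays, a difference of 0.12 with an interval from -0.19 to 0.42.

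Macrophage markers lay in the same direction as Fermt3, though 0 of the 8 tested passed the threshold. All 8 were higher in the knockout, by 0.72 to 1.91, and in 5 the groups did not overlap, where 28.1% of all genes did not. Their mean log2 value was 9.82, 11.20 and 9.59 on knockout arrays 72, 73 and 86, against 8.17, 9.07 and 8.76 on control arrays 30, 74 and 75, so that knockout 73 was highest there as well. The leukocyte integrin gene Itgb2 (difference 2.12) and Lpxn, the leukocyte relative of paxillin (difference 2.08), had the same high array, with 11.03 and 8.90 on knockout 73 (adjusted p = 0.157 each). Lpxn and the macrophage marker Cd68 had control means of 5.47 and 6.25, under the filter level of 6.50. Both entered the test through their knockout arrays, so their direction adds little. The 4 blood cell markers tested were also higher with 0 past the threshold. Their differences ran from 0.09 (S100a8, groups overlapping) to 2.32 (Ptprc, the pan-leukocyte gene of CD45). The 5 platelet markers tested overlapped between groups, Itga2b among them (-0.02). The part of these cells in the Fermt3 value was not tested.

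Talins, which link the integrin tail to actin, overlapped between groups. Tln1 had 11.73, 11.65 and 11.76 on knockout arrays 72, 73 and 86, against 12.09, 11.73 and 12.21 on control arrays 30, 74 and 75. Control 74 lay as low as the knockout arrays (difference -0.29, limma interval -0.66 to 0.07). Tln2 differed by 0.11, and Vcl, which encodes the talin-binding vinculin, by 0.17 (interval -0.26 to 0.61).

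The KANK genes, whose products bind talin and link adhesions to microtubules, were both lower in the knockout. Kank2 had 11.41, 11.31 and 11.27 on knockout arrays 72, 73 and 86, against 11.84, 11.45 and 11.90 on control arrays 30, 74 and 75. The groups did not overlap, and the gap to control 74 was narrow (difference -0.40, SE 0.16, adjusted p = 0.204). Its second probe set, with control values from 8.23 to 10.54, gave 0.25. Kank1 differed by -0.36 (adjusted p = 0.333). Its groups were barely apart, with 10.62 on knockout 86 and 10.63 on control 74. Kank3, from the list of other adhesion proteins, stood at -0.82 with overlapping groups (adjusted p = 0.168).

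Among kinases and scaffolds, Arhgef7 stood lowest. It encodes beta-PIX, an exchange factor for Rac and Cdc42 that GIT proteins bring to adhesions. Arhgef7 had 11.35, 11.04 and 11.28 on knockout arrays 72, 73 and 86, against 12.23, 11.47 and 12.17 on control arrays 30, 74 and 75. The groups did not overlap, and the difference was -0.73 (SE 0.23), or 60.1% of control (95% confidence interval 41.5 to 87.1, adjusted p = 0.137). Without control 74, the lowest control, it was -0.98 and passed (adjusted p = 0.0396), whereas without control 30 it was -0.60 (adjusted p = 0.215) and without control 75 it was -0.63 (adjusted p = 0.321). Its partners Git1 and Git2 differed by -0.26 and 0.13, with overlapping groups.

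The kinases themselves overlapped between groups. Src differed by -0.20, Fyn by 0.35 and Ptk2b, which encodes the FAK relative PYK2, by 0.36, with adjusted p of 0.514, 0.453 and 0.523. The second Fyn probe set above the filter gave -0.18. Of the scaffolds, Pxn (paxillin) differed by -0.20, its relative Tgfb1i1 (HIC-5) by -0.08, Bcar1 (p130Cas) by 0.38 and the adaptor Crkl by 0.08, all with overlapping groups. In the second Bcar1 probe set above the filter the groups did not overlap (difference 0.32, limma by probe set, adjusted p = 0.299). Crk, which binds p130Cas and paxillin, had 11.03, 10.82 and 11.22 on knockout arrays 72, 73 and 86, against 10.80, 10.72 and 10.52 on control arrays 30, 74 and 75. Its groups did not overlap, by a narrow margin (difference 0.34, adjusted p = 0.250).

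All 4 genes of membrane partners were higher in the knockout, by 0.06 to 0.46, and 0 passed; Cav2 turned to -0.05 with median centring. Cd151, a tetraspanin that binds laminin-binding integrins, had 12.80, 12.65 and 12.84 on knockout arrays 72, 73 and 86, against 12.42, 12.51 and 12.64 on control arrays 30, 74 and 75 (difference 0.24, adjusted p = 0.315). The lowest knockout value lay just above the highest control value. In 3 further Cd151 probe sets the groups did not overlap either, with differences of 0.32, 0.46 and 0.46 (limma by probe set, adjusted p of 0.262, 0.196 and 0.172), and in 1 more above the filter it was -0.03. Caveolin-1, the main coat protein of caveolae, differed by 0.14 (Cav1, groups not overlapping, adjusted p = 0.493) and Cav2 by 0.06. Sdc4, a fibronectin co-receptor, had 11.43, 11.13 and 12.02 on knockout arrays 72, 73 and 86, against 11.25, 10.72 and 11.23 on control arrays 30, 74 and 75, and its groups overlapped (difference 0.46, adjusted p = 0.353). Its second probe set above the filter differed by 1.33, also with overlapping groups (limma by probe set, adjusted p = 0.259).

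The ratio of 2 related genes on the same array was then compared in 15 pairs, which asks whether relatives differed by unequal amounts. A ratio of different probe sets gives no relative level, so that its change between groups alone is read. In 3 pairs the groups did not overlap. The log2 ratio of Tns3 to Tns1 was -0.31, -0.20 and -0.26 on knockout arrays 72, 73 and 86, against -1.27, -1.07 and -1.20 on control arrays 30, 74 and 75. The change of Tns3 thus differed from that of Tns1 by 0.92, against within-group SDs of 0.05 in knockout and 0.10 in control arteries. The ratio of Lims2 to Lims1 was 0.32, 0.03 and 0.37 on knockout arrays, against 1.19, 0.93 and 1.33 on control arrays, a difference of -0.91. The ratio of Fermt2 to Fermt3 differed by -1.22, with knockout 73 farthest from the controls. The 2-sided exact permutation p was 0.1 for each of the 3, the smallest that 3 arrays against 3 allow, and 0.5 after Benjamini-Hochberg adjustment over the 15 pairs. With probe sets averaged per gene, Fermt2 to Fermt3 overlapped (-1.06). The other 12 pairs overlapped, among them Actn4 to Actn1 (-0.04) and Cav2 to Cav1 (-0.08).

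**Figure D3:**
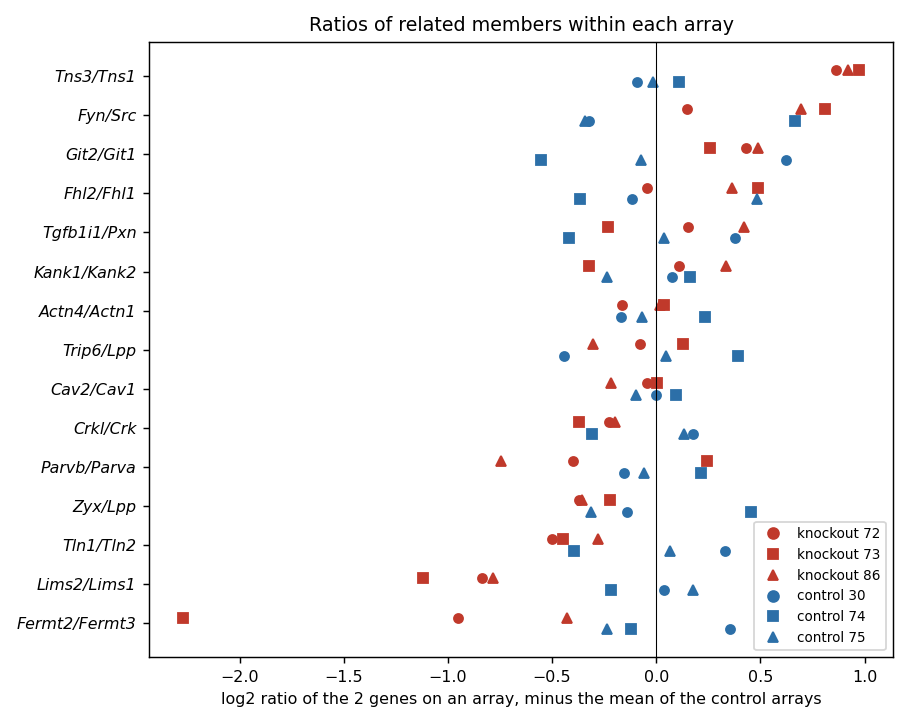
Log2 ratio of 2 related adaptor genes on each array, after subtracting the mean of the 3 control arrays, for 15 pairs; each symbol is 1 array. Tns3/Tns1 at the top and Lims2/Lims1 and Fermt2/Fermt3 at the bottom have knockout arrays clear of the control arrays, and in the other 12 pairs the groups overlap.

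Within groups, single arrays pulled many adaptors the same way. Control 74 was the lowest control array for 23 of the 41 genes (56.1%, against 37.9% of all genes), and knockout 73 was the lowest knockout array for 22 (53.7%, against 36.5% of all genes). Control 30 and knockout 86 were each the highest of their group for 21 (51.2%, against 28.1% and 34.9% of all genes). Smooth muscle markers had the same low arrays, with means of 12.20 on knockout 73 and 12.38 on control 74. Their highest control array was also control 30 (12.95), but their highest knockout array was 72 (12.53, against 12.47 on knockout 86). The part of smooth muscle content in these orders was not tested. Over the 8 smooth muscle markers, 7 were lower in the knockout (median difference -0.34, 0 past the threshold), beside the lower Lims2, Zyx, Tns1, Kank2 and Arhgef7. Among these markers, Myh11, Lmod1 and Tagln lay below with groups that did not overlap, as did 15.1% of all genes, whereas Acta2 differed by -0.03. Other cell types differed too. Of the 9 endothelial markers, 8 were lower (median difference -0.56, 0 past the threshold), 4 of them without overlap, against 15.1% of all genes. Of the 4 Schwann cell and nerve markers tested, 3 were lower (median -0.64, 0 past the threshold). All 7 adipocyte markers tested were lower (median -0.41, 0 past the threshold). Their mean log2 value was 10.82, 10.70 and 9.89 on knockout arrays 72, 73 and 86. On control arrays 30, 74 and 75 it was 9.74, 11.66 and 11.40. Though the arteries had been cleared of adipose tissue, the adipocyte gene Fabp4 had means of 13.69 in knockout and 13.89 in control arteries. Of the 7 fibroblast markers tested, 6 were higher (median 0.45), and Col1a1, a fibrillar collagen chain, passed (difference 1.23, limma adjusted p = 0.0309). The part of these cell types in the adaptor values was not tested. The 6 cell cycle markers all passed the threshold, as 2.42% of all genes did, and were higher by 3.24 to 4.80. Their control means, from 4.65 (Ube2c) to 6.42 (Ccna2), lay under the filter level of 6.50. They entered the test through the knockout arrays, and the differences are measured from weak control signal.

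For 20 of the adaptors, more than 1 probe set lay above the filter, and in 13 of these the signs were mixed. In Lims1, the second brightest probe set read 10.43, 9.65 and 10.75 on knockout arrays 72, 73 and 86, against 10.71, 8.14 and 8.09 on control arrays 30, 74 and 75, where the brightest probe set stayed between 10.26 and 10.61. Control 30 thus sat with knockout arrays 72 and 86 in this probe set, and knockout 73 lay between these and controls 74 and 75. The same was seen in the fourth of Lims1 and in the seventh of Lpp. The former read 8.21, 6.92 and 8.69 on the knockout arrays, against 8.67, 5.84 and 5.50 on the control arrays. The latter read 10.40, 8.46 and 10.50 on the knockout arrays, against 10.95, 6.85 and 7.79 on the control arrays. Of the 83 probe sets above the filter, 5 had control arrays spread over at least 2 on the log2 scale (6.02%, against 2.55% of all probe sets tested), and control 30 was highest in all 5, as it was in 46.5% of the 445 such probe sets over all genes. The 7 other Lpp probe sets had control arrays spread over less than that. Where these probe sets lie on the transcripts was not analysed here.

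**Figure D4:**
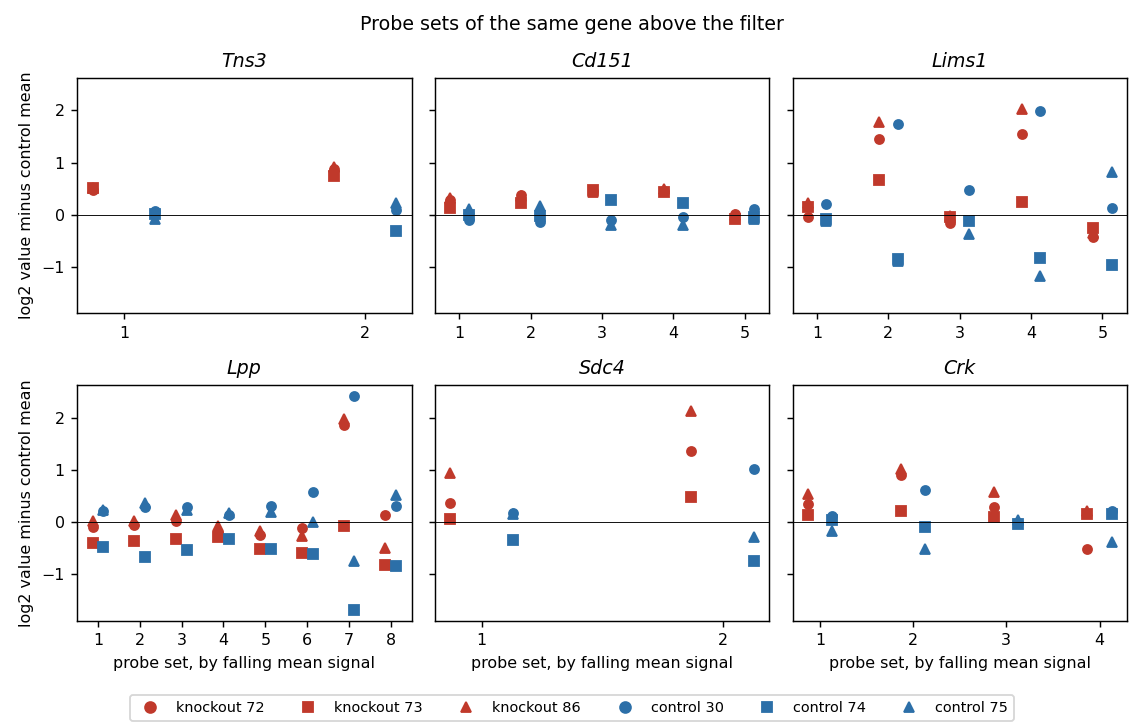
Probe sets of the same gene above the filter for 6 adaptors, ordered by falling mean signal; each symbol is 1 array, drawn as its log2 value minus the mean of the 3 control arrays. The 2 Tns3 probe sets separate the groups alike. Probe sets 2 and 4 of Lims1 and 7 of Lpp place control 30 with knockouts 72 and 86, and knockout 73 between these and controls 74 and 75.

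The promoters of the adaptors were searched for 2 motifs tied to adhesion genes. One was the CArG box, the site of serum response factor, which switches on smooth muscle and adhesion genes with actin assembly. The other was GGAATG, a core of TEAD sites used by YAP. Windows from 250 bases before to 50 after the start came from RefSeq (GRCm38.p6) and matched 35 of the 41 tested genes, in 50 windows. A CArG box, on either strand since it reads alike on both, was found in 7 of the 50 windows (14%), against 1.63% of all 32851 windows. It lay in those of Fermt2, Fhl1, Fhl2, Rsu1, Trip6 and Vcl, whose differences ran from -0.24 to 0.18, and in none of the windows found for the genes described with the largest differences. GGAATG or its complement was found in 5 windows (10%), against 14.7% of all. A match is a description of these letters and not a measured site. The 5 matches that lie wholly before a start are shown. The genes were chosen by name and not by this motif. The motif was itself chosen as one tied to adhesion genes, so its share among them is a description only. The box is in capitals, with up to 30 bases on each side. Fhl1 and Fhl2 have 2 starts each, and the Fhl1 match shown is from its first start.
Vcl, chr14:20929148-20929210, plus strand: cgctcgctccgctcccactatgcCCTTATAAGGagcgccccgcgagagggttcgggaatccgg
Fermt2, chr14:45530230-45530299, minus strand: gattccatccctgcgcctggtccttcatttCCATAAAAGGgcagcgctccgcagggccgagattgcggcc
Fhl1, chrX:56779551-56779620, plus strand: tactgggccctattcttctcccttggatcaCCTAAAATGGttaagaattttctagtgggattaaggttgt
Fhl2, first start, chr1:43196818-43196887, minus strand: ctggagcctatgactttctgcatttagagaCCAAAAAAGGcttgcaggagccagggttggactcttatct
Fhl2, second start, chr1:43163962-43164022, minus strand: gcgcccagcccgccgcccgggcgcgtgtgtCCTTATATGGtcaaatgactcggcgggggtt
Beside these sequences, Vcl had 12.78, 12.64 and 12.95 on knockout arrays 72, 73 and 86, against 12.81, 12.27 and 12.77 on control arrays 30, 74 and 75. Fhl1 had 12.96, 12.80 and 12.93 on the knockout arrays, against 13.11, 12.78 and 13.03 on the control arrays. In both genes the groups overlapped.

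Beyond the adaptors, a list of other adhesion proteins was read from the same fit. Of 85 genes, 69 were tested, 34 higher and 35 lower (median difference -0.0020), and 1 passed. Msn, which encodes moesin, a linker of actin to the membrane, had log2 values of 12.82, 12.75 and 12.97 on knockout arrays 72, 73 and 86, against 12.26, 11.92 and 12.08 on control arrays 30, 74 and 75. It rose by 0.76 (SE 0.14, 1.69-fold, adjusted p = 0.0452), and the call was lost in each of the 6 fits without 1 array (adjusted p between 0.0637 and 0.158). Tes, which encodes testin, a LIM protein that binds zyxin, had 9.22, 9.16 and 9.59 on knockout arrays, against 8.66, 8.49 and 8.36 on control arrays (difference 0.82, adjusted p = 0.0558). Limd1, another zyxin relative, stood at -0.63 (adjusted p = 0.0958) and Rap1b, a small GTPase that recruits talin to integrins, at 0.41 (adjusted p = 0.137).

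Of 25 integrin subunit genes, 19 were tested, 12 higher and 7 lower, and 0 passed. Itga5, the alpha subunit of the main fibronectin receptor, had 9.87, 9.66 and 9.95 on knockout arrays 72, 73 and 86, against values between 8.90 and 9.35 on the control arrays. All knockout values were higher (difference 0.75, adjusted p = 0.0688), and the mean of all its probe sets differed by 1.30 (adjusted p = 0.0536). Itgb5, a partner of alphav, stood at 0.47 and Itgb4, the laminin receptor subunit, at -1.01, both without overlap (adjusted p = 0.127 and 0.128).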

How the data were processed

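Total RNA was labelled with biotin and hybridised to 1-colour arrays, per the labels' protocols. The deposited table holds a linear intensity for each probe set on each array, and the authors' summary and scaling steps are not stated in the labels or the file. From the deposited intensities, log2 values were taken after adding 1, and the arrays were quantile normalized. Probe sets whose mean was under the median over those with 1 gene symbol (6.50) were left out, and the brightest probe set stood for a gene. Symbols came from the 2016 platform annotation. Groups were compared with limma 3.58.1 in R 4.3.3 (lmFit, eBayes, 2-sided), with Benjamini-Hochberg adjustment over 10654 genes, after a test on simulated data; second probe sets were read from a fit by probe set. Exact permutation tests served the gene ratios. The members and lists were chosen with earlier results of these data known. All 46 members may be named; values on every array were given for an unadjusted p under 0.05 or a difference of at least 0.5, for members of pairs described and, chosen after their values were seen, for Ilk, Tln1, Crk, Cd151, Sdc4, Vcl, Fhl1 and Parvg. From other lists, genes past the threshold and up to 4 with the smallest p were named; Kank3, Lpxn, Itgb2, Itga2b and Acta2 were added after their values were seen. The labels number the animals and state nothing on litters or days. Alternatives are listed in the closing section.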

Additional observations from a re-analysis of the deposited data

How the results depend on the processing

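The count of 0 adaptors past the threshold held without normalization between arrays, with a pseudocount of 16, no filter, the 70th percentile filter and a test by probe set. It was 1 with median centring (Lims2), with the mean of all probe sets (Tns3) and with a trended robust prior (Tns3). With array weights it was 4 of 41 (Arhgef7, Lims2, Tns3 and Zyx), where 1131 of all 10654 genes passed. With 1 array left out it was 0 to 1, the 1 being Arhgef7 without control 74. The adaptors at an unadjusted p under 0.05 numbered 6 to 9 in those fits (14.6% to 22%), against 14.4% to 22.8% of all genes. Their median difference was -0.0495 with array weights and ran from -0.0521 (without control 74) to 0.0877 with 1 array left out. Pairs without overlap numbered 4 to 6 there, where fewer arrays make overlap rarer, and were 5 without knockout 73, 6 without control 74 and 5 without control 75. With the mean of all probe sets they were 2, as Fermt2 to Fermt3 then overlapped; in that setting Tns1 stood at -0.21, Kank2 at -0.08 and Itga5 at 1.30. Genes past the threshold in all fell to 141 with the 70th percentile filter and to between 45 and 240 with 1 array left out; without the female array, knockout 86, 69 were left. The 8 adaptors with an unadjusted p under 0.05 or a difference of at least 0.5 kept their sign in the settings run. Without knockout 86, Fermt3 stood at 1.67, Vasp at 0.56 and Tns3 at 0.50. In the same fit Lims2 stood at -0.92, Arhgef7 at -0.76, Zyx at -0.54, Tns1 at -0.42 and Kank2 at -0.37. Of the other 33, between 0 and 7 changed sign, the 7 without control 74. Msn lost its call with median centring, no normalization between arrays, no filter or a test by probe set (highest adjusted p = 0.112). No paired analysis was possible because the groups share no animal numbers. With 3 arrays per group, small differences of single genes cannot be told from array spread.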

Other observations

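Adhesion genes typical of leukocytes did not all differ alike. Fermt3, Lpxn and Itgb2 stood at 1.33, 2.08 and 2.12 on the log2 scale, whereas Parvg, the parvin of blood cells, stood at -0.01, with log2 values of 6.43, 6.77 and 6.54 on knockout arrays 72, 73 and 86, against 6.29, 6.94 and 6.53 on control arrays 30, 74 and 75. The Parvg probe set lay near the filter level of 6.50. Lpxn passed that filter through its knockout arrays (mean 7.54, against 5.47 on control arrays).

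The caveolin of striated muscle, Cav3, had 9.12, 8.53 and 9.79 on knockout arrays 72, 73 and 86, against 8.53, 7.53 and 8.28 on control arrays 30, 74 and 75, a difference of 1.03 (limma adjusted p = 0.182). Of the 10 striated muscle markers on the array, 1 lay above the filter, Ckm, at -0.79. The paired cysteine-rich LIM genes of smooth muscle also stood apart: Csrp2 was at 0.51 and Csrp1 at -0.39, with adjusted p of 0.205 and 0.207, and neither overlapped between groups. These genes were chosen after their values were seen.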
